A study of Mus musculus with 48 samples.

Results

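Monocyte libraries with high and low levels of Mpo were compared across the other genes. The cultures are ER-Hoxb8 cells, mouse bone marrow progenitors that divide in culture for as long as a Hoxb8 protein fused to a hormone-binding domain of the estrogen receptor stays active, grown in serum with stem cell factor (SCF). The series holds 48 RNA-seq libraries, 1 monocytic culture and 1 granulocyte-monocyte progenitor culture from each of 24 clones, so every library is a single clone and no clone was sequenced more than once per state. The 24 monocyte libraries carry the word minus in their names and the progenitor libraries the word plus, and the labels used here do not state what the words stand for or how long the cells had been maturing. All cells carry the ER-Hoxb8 construct, and the labels name no treatment or further allele that separates the groups.

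The groups come from the Mpo level itself, not from the labels: the members were selected on their Mpo TPM in monocytes. Clones 8 and 26 were left out, the other monocyte libraries were ranked by Mpo within clones 1 to 13 (12 libraries) and within clones 15 to 26 (10 libraries), and the 4 highest and the 4 lowest of each set were taken. This gave 8 high Mpo and 8 low Mpo monocyte libraries of 24 monocyte libraries and 48 libraries in all, with 6 libraries in the middle. The high Mpo clones are 3, 4, 9, 11, 17, 19, 22 and 24, the low Mpo clones are 1, 2, 5, 10, 15, 20, 21 and 23, and the middle clones are 6, 7, 12, 13, 16 and 18.

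Mpo encodes myeloperoxidase, a heme enzyme that turns hydrogen peroxide and chloride into hypochlorous acid. It is stored with the serine proteases neutrophil elastase, cathepsin G and proteinase 3 in the primary (azurophil) granules. In granulocyte and monocyte development the genes of these proteins are transcribed early, around the promyelocyte and promonocyte stages, while secondary granule proteins, chemotactic receptors and many innate sensors are made later, after division slows. A high Mpo level in a culture labelled monocytic can therefore be read against markers of incomplete and of full maturation, which is the contrast described here.

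In the 8 high Mpo monocyte libraries Mpo stood at 917, 759, 678 and 499 TPM in clones 4, 11, 3 and 9 and at 4796, 2861, 1974 and 645 TPM in clones 22, 19, 17 and 24. In the 8 low Mpo libraries it stood at 267, 181, 93.0 and 40.9 TPM in clones 2, 10, 5 and 1 and at 183, 12.05, 4.95 and 2.70 TPM in clones 23, 20, 21 and 15. TPM (transcripts scaled to a fixed library total) are a length-corrected share of each library. The span was wider in clones 15 to 26, where 3 of the 4 low libraries held 12.05 TPM or less, than in clones 1 to 13, where the lowest library held 40.9 TPM. At the borders, clone 9 (499 TPM, high) lay next to clone 7 (463 TPM, middle), clone 2 (267 TPM, low) next to clone 6 (318 TPM, middle), clone 24 (645 TPM, high) next to clone 16 (552 TPM, middle) and clone 23 (183 TPM, low) next to clone 18 (493.3 TPM, middle). These values chose the groups, so no test of Mpo was made in monocytes.

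**Figure D1:**
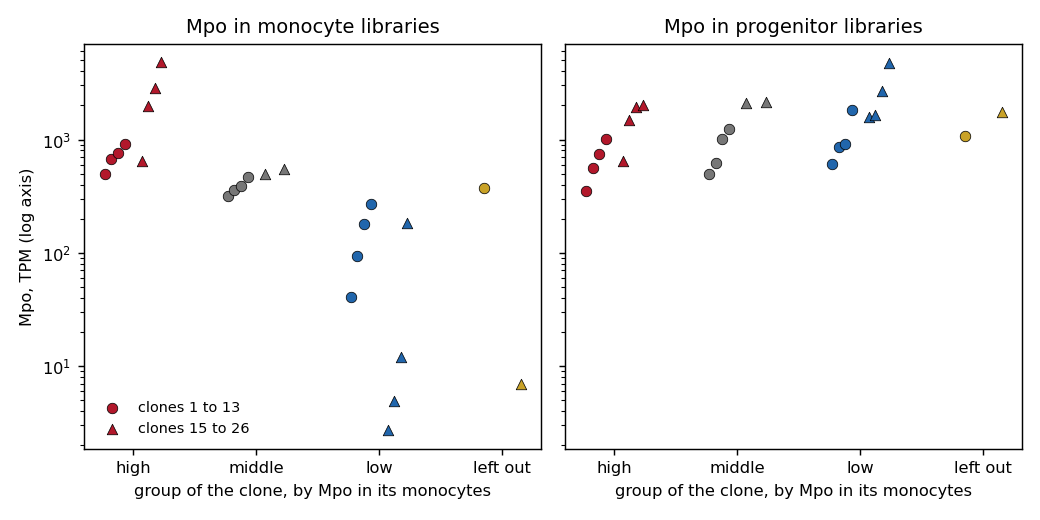
Mpo in TPM (log axis) in each monocyte library (left) and each progenitor library (right), by the Mpo group of the clone's monocytes, with circles for clones 1 to 13 and triangles for clones 15 to 26. The monocyte groups lie apart within each set because Mpo chose them, while in progenitors of the same clones the high and low groups overlap.

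The label monocyte was checked against markers. Csf1r, the receptor for the monocyte growth factor, had 3.97, 36.4 and 95.0 TPM (lowest, median and highest) in high Mpo libraries and 23.1, 139 and 258 TPM in low Mpo libraries. The inflammatory monocyte gene Ly6c2 had 480.0, 1503 and 3746 TPM in high Mpo libraries and 443, 593 and 1904 TPM in low Mpo libraries, and the chemokine receptor Ccr2 had at least 5.46 TPM in high Mpo and 4.14 TPM in low Mpo libraries. Neutrophil genes were abundant too: S100a8 reached 49499 TPM in high Mpo and 49870 TPM in low Mpo libraries. The 22 neutrophil markers summed to between 912 and 147257 TPM in high Mpo libraries (median 62548) and between 2792 and 200934 TPM in low Mpo libraries (median 47110), so monocyte and granulocyte programmes were both present in each group, in very unequal amounts from clone to clone. In bulk RNA, fewer cells of a type and less RNA per cell cannot be told apart. The 12 dendritic cell genes summed to 22.97, 75.2 and 163 TPM in high Mpo and 78.4, 111 and 232 TPM in low Mpo libraries, mostly through Id2 and Clec10a, which other myeloid cells also express. Of the defining ones, Cd209a and Ccr7 were listed at 0 in all 16 libraries and Zbtb46, Xcr1 and Siglech stayed at or below 0.419 TPM. The part of dendritic cells in the results was not tested.

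The number of genes detected was alike, while 2 shares of the TPM differed. The mitochondrial share differed within clones 15 to 26, apart from clone 23. The Gm share was higher in high Mpo libraries of both sets, without overlap in clones 1 to 13 and with clone 23 overlapping in clones 15 to 26. Between 9448 and 10550 genes reached 1 TPM in high Mpo libraries, against 9436 to 10717 in low Mpo libraries. In clones 15 to 26, mitochondrially encoded genes held 10.5 to 19.2% of the TPM in high Mpo libraries and 1.98, 2.45, 6.39 and 15.4% in low Mpo clones 20, 21, 15 and 23, and gene models named Gm held 26.1 to 29.8% in high Mpo libraries and 16.8, 17.1, 19.6 and 27.6% in the same low Mpo clones. Clone 23 thus had the shares of the high Mpo libraries. In clones 1 to 13 the mitochondrial share was 3.06 to 6.83% in high Mpo and 3.76 to 5.42% in low Mpo libraries, and the Gm share 23.3 to 27.1% in high Mpo and 19.1 to 22.3% in low Mpo libraries. TPM keep no sequencing depth, so the depth is unknown and no counting error can be given. The part of these shares in the differences below was not tested beyond the rescaled values given with them.

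Across 10808 genes with a mean of at least 1 TPM, limma called 1036 genes (9.59%) at an adjusted p under 0.05 between high and low Mpo monocytes, with the set of clones in the fit. Of these, 564 (5.22%) were higher and 472 (4.37%) lower in high Mpo monocytes, and 655 of the 1036 differed by at least 2-fold. All changes below are high minus low on the log2(TPM + 1) scale, which understates the change of genes with few TPM, and their errors are SE from 8 libraries against 8. The median change of all tested genes was -0.13. After mitochondrial, Gm, Rik and ribosomal pseudogene entries were removed and the rest rescaled, that median was 0.03 and the calls were 738 higher and 304 lower, so the split between the directions depends on the scaling. Within each set of clones, 143 genes had all 4 high libraries above all 4 low libraries (1.32% of tested genes) and 44 the reverse (0.407%), 187 in all (1.73%).

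The count rests on the choice of libraries. With 1 library left out, it was 595, 546, 387, 487 and 291 without clones 3, 4, 9, 17 and 22 of the high group, 318, 405, 408, 357 and 419 without clones 1, 5, 15, 20 and 21 of the low group, and 2520 without clone 23 of the low group. Clone 23 was the low Mpo library of its set nearest to the middle, at 183 TPM. The 5 other removals gave 746 to 1279. Fitted within a set, 4 libraries against 4, limma called 1 gene in clones 1 to 13 (2984 at an unadjusted p under 0.05) and 0 in clones 15 to 26 (2225 at an unadjusted p under 0.05).

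Most genes of the primary granule list were higher in high Mpo monocytes. Of the 10 genes on a list of primary granule and promyelocyte genes, 7 were higher in high Mpo monocytes and 0 lower. Over all tested genes 5.22% were called higher and 4.37% lower. The median change of the list was 2.77 against -0.13 for all tested genes. In the fits with 1 library left out, 5 to 8 of the 10 were called, and 0 within either set alone. Elane, neutrophil elastase, had 201, 570.4 and 984 TPM (lowest, median and highest) in high Mpo libraries and 1.23, 44.1 and 222 TPM in low Mpo libraries. Its change was 4.20 ± 0.71 (limma, adjusted p = 0.0127). Low libraries of clones 1 to 13 kept some Elane, up to 222 TPM in clone 2, and those of clones 15 to 26 held 51.4 TPM or less, so the groups did not overlap within a set but did across sets.

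Ctsg, cathepsin G, had 176, 469 and 1888.5 TPM in high Mpo and 1.66, 50.6 and 148 TPM in low Mpo libraries, a change of 4.07 ± 0.82 (adjusted p = 0.0134). Prtn3, proteinase 3, had 591, 1048 and 2141 TPM in high Mpo and 15.9, 98.8 and 451 TPM in low Mpo libraries, a change of 3.81 ± 0.56 (adjusted p = 0.00783). For both proteases each of the 8 high libraries lay above each of the 8 low libraries. Nkg7, a granule membrane protein best known from cytotoxic lymphocytes, had 10.6, 46.1 and 112 TPM in high Mpo and 0, 1.55 and 11.8 TPM in low Mpo libraries, where it was listed at 0 in 2. Its change was 3.72 ± 0.58 (adjusted p = 0.0092). Ms4a3, a membrane protein typical of granulocyte-monocyte progenitors, had 192, 402 and 686 TPM in high Mpo and 1.99, 31.9 and 209.9 TPM in low Mpo libraries, a change of 3.69 ± 0.61 (adjusted p = 0.0127). These 5 genes stayed called whichever of the 16 libraries was left out.

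The 2 other called members changed less. Plac8, a small cysteine-rich protein, changed by 1.85 ± 0.53 (adjusted p = 0.041), and Srgn, serglycin, the proteoglycan that packs granule proteases, by 1.21 ± 0.34 (adjusted p = 0.0403). Both overlapped between the groups, Plac8 reaching 1198 TPM in a low Mpo library. Cst7 (1.24 ± 0.58, adjusted p = 0.16), Clec12a (0.90 ± 0.31, adjusted p = 0.0707) and Igfbp4 (1.09 ± 0.40, adjusted p = 0.0856) did not pass. Cst7 encodes cystatin F, an inhibitor of lysosomal cysteine proteases, and Clec12a an inhibitory lectin receptor. Prss57, a further serine protease of primary granules that was not on the list, had 11.7, 46.0 and 86.7 TPM in high Mpo and 0.770, 4.04 and 23.6 TPM in low Mpo libraries (2.93 ± 0.43, adjusted p = 0.00783).

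**Figure D2:**
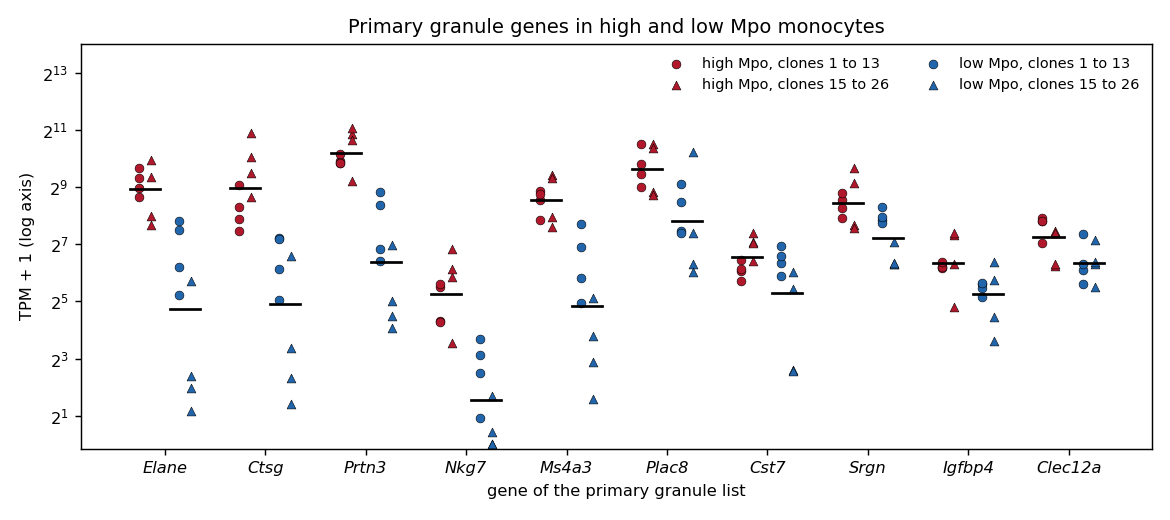
TPM + 1 (log axis) of the 10 primary granule list genes in the 8 high Mpo (red) and 8 low Mpo (blue) monocyte libraries, with circles for clones 1 to 13, triangles for clones 15 to 26 and bars at the mean of the log2 values. Ctsg and Prtn3 separate all 16 libraries, and the lowest values of Elane, Ctsg and Ms4a3 belong to low Mpo clones of the second set.

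Several of these genes are neighbours in the genome. On the GRCm38 (mm10) build, with GENCODE positions, Mpo lies at chr11:87793581-87804413 on the plus strand, Ctsg at chr14:56099881-56102574 on the minus strand, Nkg7 at chr7:43437073-43438249 on the plus strand and Ms4a3 at chr19:11629496-11640851 on the minus strand, and all are protein-coding. Prtn3 (chr10:79874476-79883174) and Elane (chr10:79886247-79888215) follow each other on the plus strand, 3072 bases apart. Prss57 (chr10:79781474-79790961, minus strand) lies 95285 bases before Elane. Of the genes between and beside them, Palm (0.12 ± 0.34, adjusted p = 0.83), Ptbp1 (0.18 ± 0.36, adjusted p = 0.745) and Med16 (0.07 ± 0.18, adjusted p = 0.819) did not pass, so the difference did not extend to every gene of the stretch.

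Plppr3, a phospholipid phosphatase-related membrane protein, lies on the opposite strand and overlaps the annotated Prtn3 gene by 159 bases. It had 10.3, 22.15 and 76.7 TPM in high Mpo and 0.815, 3.67 and 9.66 TPM in low Mpo libraries (2.64 ± 0.48, adjusted p = 0.0127). At its other end Plppr3 (chr10:79860475-79874634) also overlaps Ptbp1 (chr10:79854427-79864771, plus strand), over a longer stretch. Ptbp1 had means of 200 TPM in high Mpo and 165 TPM in low Mpo libraries. Whether strand was used in the quantification the sources used here do not say. Reads of Plppr3 therefore cannot be fully told apart from those of Prtn3 and Ptbp1. Within 50 kb of Mpo and the 7 called granule genes lie 20 other tested genes, leaving out the granule genes themselves, of which 4 were called higher and 0 lower, against 5.22% higher and 4.37% lower over all tested genes. They are Plppr3, Tspoap1 (2.57 ± 0.60), which ends 7652 bases before Mpo, Etfb (1.57 ± 0.30), near Nkg7, and Oosp1 (2.12 ± 0.37), near Ms4a3. This window was chosen after values of these genes had been seen. Tspoap1 had 2.60, 17.04 and 67.6 TPM in high Mpo and 0.356, 1.60 and 6.70 TPM in low Mpo libraries, and overlapped between the groups.

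The start regions of the 4 genes that define the granule enzymes are shown because these genes moved together. They are RefSeq promoters of the GRCm38.p6 build, 250 bases before to 50 bases after the start, each written 5′ to 3′ on the gene's own strand. Capitals mark GAGGAA, a core that the myeloid factor PU.1 binds, on either strand, and TTNNGNAA, a C/EBP core, which none of the 4 holds. The regions are chr11:87793534-87793833 (plus strand) for Mpo, chr10:79886062-79886361 (plus strand) for Elane, chr10:79879417-79879716 (plus strand) for Prtn3 and chr14:56102525-56102824 (minus strand) for Ctsg.
Mpo: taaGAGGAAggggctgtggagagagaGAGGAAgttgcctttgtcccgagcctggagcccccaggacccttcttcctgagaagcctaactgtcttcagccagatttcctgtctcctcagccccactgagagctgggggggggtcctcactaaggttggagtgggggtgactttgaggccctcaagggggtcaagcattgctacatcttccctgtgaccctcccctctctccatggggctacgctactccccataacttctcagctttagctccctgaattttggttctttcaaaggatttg
Elane: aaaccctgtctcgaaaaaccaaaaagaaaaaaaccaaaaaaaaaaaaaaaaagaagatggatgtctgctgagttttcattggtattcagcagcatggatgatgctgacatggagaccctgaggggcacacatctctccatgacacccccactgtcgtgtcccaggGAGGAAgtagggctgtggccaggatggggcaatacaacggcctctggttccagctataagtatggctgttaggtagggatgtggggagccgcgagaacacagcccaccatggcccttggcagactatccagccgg
Prtn3: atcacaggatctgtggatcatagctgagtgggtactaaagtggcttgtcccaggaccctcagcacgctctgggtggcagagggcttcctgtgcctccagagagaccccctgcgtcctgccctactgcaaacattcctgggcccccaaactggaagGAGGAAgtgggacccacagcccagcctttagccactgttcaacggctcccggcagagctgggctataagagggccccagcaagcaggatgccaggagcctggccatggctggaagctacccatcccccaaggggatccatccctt
Ctsg: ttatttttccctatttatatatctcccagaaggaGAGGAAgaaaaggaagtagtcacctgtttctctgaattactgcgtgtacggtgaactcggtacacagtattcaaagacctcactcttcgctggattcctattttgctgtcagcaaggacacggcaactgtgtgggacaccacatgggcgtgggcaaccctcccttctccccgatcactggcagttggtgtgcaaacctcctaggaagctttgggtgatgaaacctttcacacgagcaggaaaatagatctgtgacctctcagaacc
GAGGAA stands at -247 and -224 from the Mpo start, at -85 from the Elane start, at -95 from the Prtn3 start and at -216 from the Ctsg start. Among 9 promoters of the 7 called granule genes, without Mpo, 5 (55.6%) held GAGGAA against 28.3% of 32851 promoters, 4 (44.4%) held TTNNGNAA against 40.7%, 4 (44.4%) held the RUNX core TGTGGT against 16.8% and 1 (11.1%) held the MYB core TAACNG against 23.3%. With 9 promoters these shares are a description of letters in a window and not of binding.

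Most genes of DNA replication and cell division were higher in high Mpo monocytes. Of 24 cell cycle genes, 20 were higher and 0 lower in high Mpo monocytes, with a median change of 1.40. Over all tested genes 5.22% were called higher and 4.37% lower. In the fits with 1 library left out, 12 to 21 were called: 12 without clone 22 of the high group or clone 1 of the low group, and 14 or more without any other. After rescaling 21 were called, and within either set alone 0. The summed level of the 24 genes was 786, 1227 and 1654 TPM (lowest, median and highest) in high Mpo and 225, 531 and 1093 TPM in low Mpo libraries, so the groups overlapped.

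Tyms, thymidylate synthase, which makes the thymidine nucleotide of DNA, had 39.6, 60.3 and 72.2 TPM in high Mpo and 4.64, 14.3 and 46.5 TPM in low Mpo libraries (1.99 ± 0.37, adjusted p = 0.0127). Mcm5, a subunit of the replicative helicase, had 27.1, 35.3 and 59.7 TPM in high Mpo and 3.74, 9.04 and 27.4 TPM in low Mpo libraries (1.93 ± 0.34, adjusted p = 0.0127). In both genes the overlap came from clone 2, the low Mpo library of its set with the most Mpo, which held 27.4 TPM of Mcm5 against 27.1 TPM in high Mpo clone 11. Mcm2, of the same helicase, changed by 1.89 ± 0.49 (adjusted p = 0.031) and lost the call without any of clones 9, 17, 22, 1, 5, 15 and 21.

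Mcm3, Mcm4, Mcm6 and Mcm7 changed by 1.49 to 1.78, and Rrm2, the small subunit of ribonucleotide reductase, by 1.88 ± 0.36 (adjusted p = 0.0127). Of genes used in mitosis or as marks of division, Mki67, the proliferation antigen, changed by 1.10 ± 0.28 (adjusted p = 0.0297) and Top2a, topoisomerase II, by 1.36 ± 0.32 (adjusted p = 0.0226). Plk1 (adjusted p = 0.0713), Bub1 (adjusted p = 0.0767), Pcna (adjusted p = 0.101) and Cdt1 (adjusted p = 0.0798) did not pass. Outside the list, Pold2, a subunit of DNA polymerase delta, changed by 2.39 ± 0.51 (adjusted p = 0.0158) and Dut, which removes dUTP, by 2.25 ± 0.41 (adjusted p = 0.0127). All 8 high libraries lay above all 8 low libraries for both: Dut had 34.1, 42.8 and 82.7 TPM in high Mpo and 2.21, 11.9 and 30.3 TPM in low Mpo libraries. Rgcc, a regulator of the cell cycle, changed by 2.16 ± 0.37 (adjusted p = 0.0127).

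The promoter of Mcm5 (RefSeq, GRCm38.p6, chr8:75109259-75109558, plus strand) is shown as an example of the replication genes. Capitals mark TTTNGCGC, the core of an E2F site, which it holds on both strands in overlapping copies.
Mcm5: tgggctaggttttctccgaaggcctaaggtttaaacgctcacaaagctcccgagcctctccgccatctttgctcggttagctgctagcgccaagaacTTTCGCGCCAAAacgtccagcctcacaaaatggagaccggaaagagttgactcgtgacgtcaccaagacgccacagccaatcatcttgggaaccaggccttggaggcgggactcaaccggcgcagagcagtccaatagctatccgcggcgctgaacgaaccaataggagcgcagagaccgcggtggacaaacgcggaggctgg
Of 17 promoters found for 16 of the 20 called cell cycle genes, 5 (29.4%) held TTTNGCGC on either strand, against 1.38% of all 32851 promoters. They belong to Mcm3, Mcm5, Mcm6, Mcm7 and Cdk1. None of the 9 granule promoters did, and at a share of 1.38% over all promoters this draws no contrast. Of the 17 cell cycle promoters, 7 (41.2%) held GAGGAA against 28.3% of all promoters and 7 (41.2%) held TAACNG against 23.3%. TTNNGNAA stood in 6 (35.3%) against 40.7% and TGTGGT in 1 (5.88%) against 16.8%.

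Regulators of the progenitor state were less uniform. Myb, a transcription factor needed for myeloid progenitor growth, had 7.91, 72.6 and 267 TPM in high Mpo and 2.37, 4.84 and 47.8 TPM in low Mpo libraries (2.96 ± 0.68, adjusted p = 0.021), and stayed called whichever library was left out. Clone 2 held 47.8 TPM and the other 7 low libraries 7.63 TPM or less. Of the 10 measured stem and progenitor genes Myb was the 1 that passed, against 5.22% called higher over all tested genes. Kit, the SCF receptor, had 12.5, 18.8 and 50.5 TPM in high Mpo and 3.12, 14.3 and 23.2 TPM in low Mpo libraries (1.002 ± 0.39, adjusted p = 0.0966). Cd34 had medians of 5.96 TPM in high Mpo and 4.94 TPM in low Mpo libraries (0.34 ± 0.41, adjusted p = 0.575), Myc, which drives growth, changed by 1.66 ± 0.55 (adjusted p = 0.0644), and Flt3 stayed at or below 0.165 TPM. So Myb passed this threshold, though its levels overlapped between the groups, and the surface markers Kit and Cd34 did not pass. Myb and these markers were not tested against each other.

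Of 15 measured myeloid transcription factors, 1 was higher and 2 were lower, against 5.22% higher and 4.37% lower over all tested genes. Gfi1, a repressor that acts in granulocyte development, had 10.1, 21.9 and 59.8 TPM in high Mpo and 1.79, 8.87 and 14.4 TPM in low Mpo libraries (1.65 ± 0.42, adjusted p = 0.029), and lost the call without any of clones 9, 17, 22, 1, 5 and 15. Klf2 (-1.42 ± 0.35, adjusted p = 0.0244) and Klf6 (-1.29 ± 0.31, adjusted p = 0.0243), Kruppel-like factors of quiescent and activated myeloid cells, were lower. Klf2 lost the call without clone 9 or 20 and Klf6 without clone 9, 22, 1 or 20. Spi1, which encodes PU.1, had 154, 231 and 285 TPM in high Mpo and 177, 394 and 597 TPM in low Mpo libraries (-0.75 ± 0.23, adjusted p = 0.0527). The remaining factors did not pass: Cebpa (0.39 ± 0.30, adjusted p = 0.373), Cebpb (-0.56 ± 0.29, adjusted p = 0.195), Cebpd (-0.34 ± 0.26, adjusted p = 0.366), Cebpe (0.11 ± 0.70, adjusted p = 0.926), Irf8 (-0.75 ± 0.74, adjusted p = 0.494), Irf5 (-0.96 ± 0.40, adjusted p = 0.124), Klf4 (-0.13 ± 0.33, adjusted p = 0.8), Egr1 (-1.06 ± 0.35, adjusted p = 0.0627), Egr2 (-0.80 ± 0.48, adjusted p = 0.263), Runx1 (-0.40 ± 0.18, adjusted p = 0.147) and Id1 (0.33 ± 0.34, adjusted p = 0.522). Irf4 was below the filter, as was Per3, a circadian clock gene on the list that is not a myeloid lineage factor. Cebpa and Irf8 specify the granulocyte and monocyte lines, Cebpe the secondary granules.

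Among the named genes the 3 largest decreases were those of a pair of chemotactic receptors and a cytokine of mature phagocytes. Fpr2, a formyl peptide receptor, had 0.330, 23.5 and 45.0 TPM in high Mpo and 39.9, 150.2 and 337 TPM in low Mpo libraries (-3.07 ± 0.62, adjusted p = 0.0134). Fpr1, the main receptor for bacterial formyl peptides, had 0, 5.55 and 19.9 TPM in high Mpo and 7.16, 53.6 and 79.4 TPM in low Mpo libraries (-3.03 ± 0.52, adjusted p = 0.0127). The 1 low library of Fpr1 that reached into the high range was clone 23. Il1b, interleukin 1 beta, had 0.961, 2.68 and 11.2 TPM in high Mpo and 4.05, 25.1 and 277 TPM in low Mpo libraries (-2.99 ± 0.49, adjusted p = 0.0127). The rule that named these 3 genes required no overlap within either set. They stayed called whichever library was left out.

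A further 7 genes were named for the largest called decreases among genes with at least 10 TPM in low Mpo monocytes and no overlap within either set, a rule that leaves out overlapping genes with larger decreases such as Mmp8 and Tlr13. Tecpr1, which acts when autophagosomes meet lysosomes (-2.07 ± 0.40), Ier5, an immediate early gene (-1.60 ± 0.30), and Cd200r4, an activating CD200 receptor family member (-1.44 ± 0.29), had every high library below every low library. Bcl6, a transcriptional repressor (-1.81 ± 0.37), Fam134b, an endoplasmic reticulum turnover receptor (-1.68 ± 0.33), and Ubl3, a membrane-anchored ubiquitin-like protein (-1.60 ± 0.32), separated within each set. Gcnt2, a glycan-branching enzyme (-1.54 ± 0.39, adjusted p = 0.029), lost its call without any of clones 9, 17, 22, 1, 15, 20 and 21. Adjusted p of the other 6 lay between 0.0127 and 0.0134. Cd200r4 belongs to a family of near-identical genes, so its TPM is uncertain.

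Some innate sensors were lower. Of 15 measured pattern recognition and Fc receptor genes, 4 were lower and 0 higher, against 4.37% lower and 5.22% higher over all tested genes. Their median change was -1.16, against -0.13 for all tested genes. Their summed level was 1156, 2493 and 3606 TPM in high Mpo and 3697, 4369 and 5723 TPM in low Mpo libraries, with no overlap. Tlr13 (-1.77 ± 0.45, adjusted p = 0.0297), a sensor of bacterial ribosomal RNA, Tlr7 (-1.70 ± 0.47, adjusted p = 0.0375), a sensor of single-stranded RNA, and Tlr2 (-1.66 ± 0.45, adjusted p = 0.0354), a sensor of lipoproteins, passed together with Fcer1g, the signalling chain of Fc receptors. Tlr7 had 4.87, 20.8 and 37.7 TPM in high Mpo and 27.3, 44.8 and 157 TPM in low Mpo libraries. The number of calls was 1 without clone 9, 22, 1, 5, 15 or 21, 2 without clone 19 or 20, and 3 to 5 otherwise.

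Secondary granule and neutrophil genes, which follow primary granules in granulocyte development, had 2 genes called lower in each list. Over all tested genes 4.37% were called lower. Of 16 secondary and tertiary granule genes, 2 were lower and 0 higher, with a median change of -1.26: Mmp8, a neutrophil collagenase (-2.27 ± 0.65, adjusted p = 0.0419), and Lyz2, lysozyme (-1.23 ± 0.35, adjusted p = 0.0403). Mmp8 lost the call without any of clones 4, 9, 17, 19, 22, 24, 1, 5, 15, 20 and 21 and Lyz2 without any of clones 9, 17, 19, 22, 1, 5, 10, 15, 20 and 21, and with clone 23 left out 6 of the 16 genes were called lower. Lyz2 had 1186, 5941 and 12564 TPM in high Mpo and 5939, 12978 and 18158 TPM in low Mpo libraries. Ltf, lactoferrin, ranged from 1.15 to 18456 TPM in high Mpo and from 50.4 to 48973 TPM in low Mpo libraries (-2.93 ± 1.62, adjusted p = 0.223), a spread within each group that left its difference unresolved. Of 21 measured neutrophil genes the 2 formyl peptide receptors were called, or 7 genes without clone 23, and the median change was -2.83 in clones 15 to 26 and 0.17 in clones 1 to 13. S100a8 changed by -0.56 ± 0.94 (adjusted p = 0.695).

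Most monocyte and macrophage genes had lower values in high Mpo monocytes. Their calls are set against the 4.37% called lower over all tested genes. Of 19 classical monocyte genes 0 passed (17 negative, median -0.70, with 0 to 7 called lower over the settings tried), with Ly6c2 at 0.85 ± 0.41 (adjusted p = 0.167) and Csf1r at -1.73 ± 0.70 (adjusted p = 0.113). All 16 macrophage genes had a negative change and 0 passed (median -0.93), Lgals3, galectin 3, at -1.57 ± 0.54 (adjusted p = 0.0724). Of 10 non-classical monocyte genes, 2 were lower: Treml4 (-1.23 ± 0.35, adjusted p = 0.0419), a receptor of the triggering receptor family, and the integrin Itgal (-0.998 ± 0.29, adjusted p = 0.0419), each called in 4 or fewer of the 16 fits with 1 library left out. Inflammatory cytokine and NF-kB genes gave 3 lower and 0 higher of 11, namely Il1b, the chemokine Ccl3 (-1.60 ± 0.47, adjusted p = 0.0459) and Tnf (-1.16 ± 0.35, adjusted p = 0.0475). The count of 3 fell to 1 without any of clones 3, 4, 9, 11, 19, 22, 1, 5, 10, 15, 20 and 21 and reached 7 without clone 24 and 6 without clone 23.

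**Figure D3:**
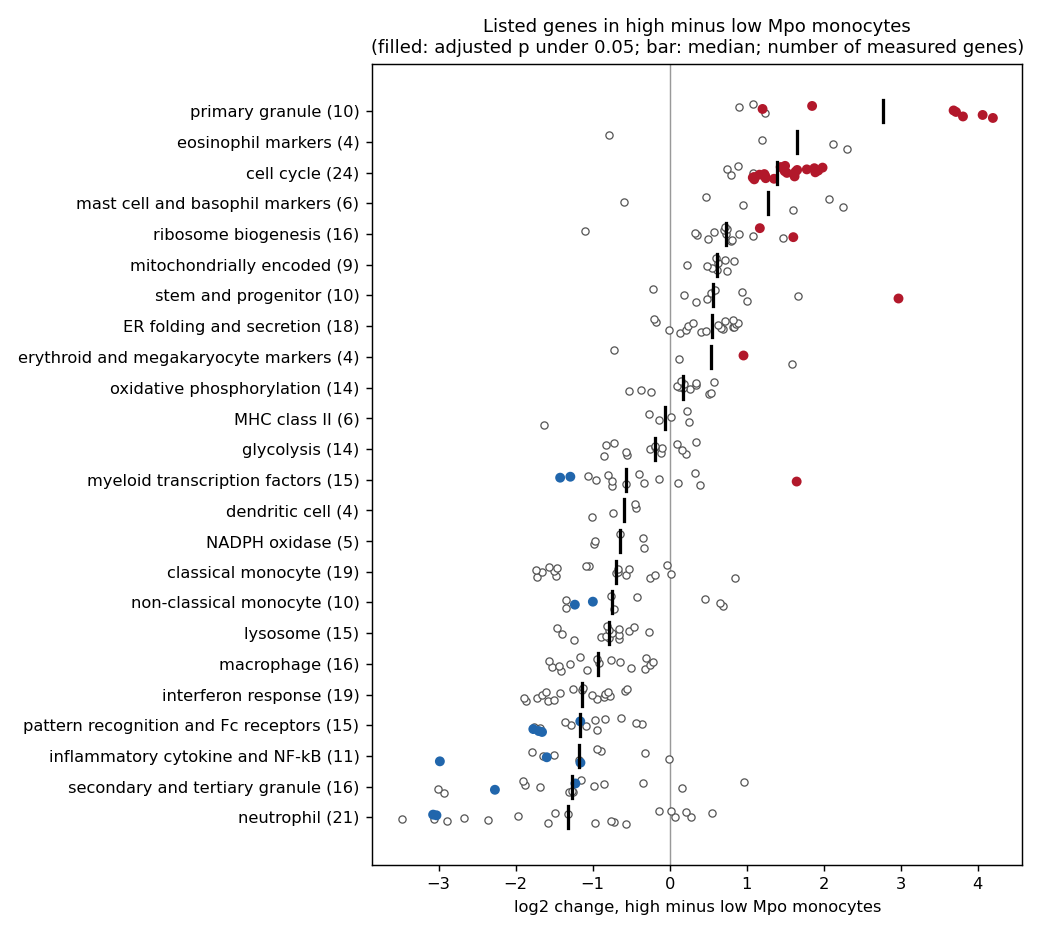
Log2 change (high minus low Mpo monocytes) of each listed gene, 1 row per list shown with the number of measured genes, a bar at the list's median and filled points for an adjusted p under 0.05. Primary granule and cell cycle genes hold most of the filled points on the right, and innate sensor, inflammatory, secondary granule and neutrophil lists lie to the left with few filled points.

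Ribosome biogenesis genes are set against the 5.22% called higher over all tested genes. Of 16 ribosome biogenesis genes 2 passed, Nop58 (1.61 ± 0.45, adjusted p = 0.038) and Gar1 (1.17 ± 0.34, adjusted p = 0.044), both parts of the machinery that modifies ribosomal RNA. Of the 16 genes 15 had a positive change (median 0.73), and 0 to 13 were called higher over the settings tried. With 1 library left out, Nop58 passed in 6 and Gar1 in 4 of 16 fits. Their changes were 2.93 and 2.06 in clones 15 to 26 and 0.28 in clones 1 to 13 for each gene. That difference between the sets did not pass (adjusted p = 0.235 for each).

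**Figure D4:**
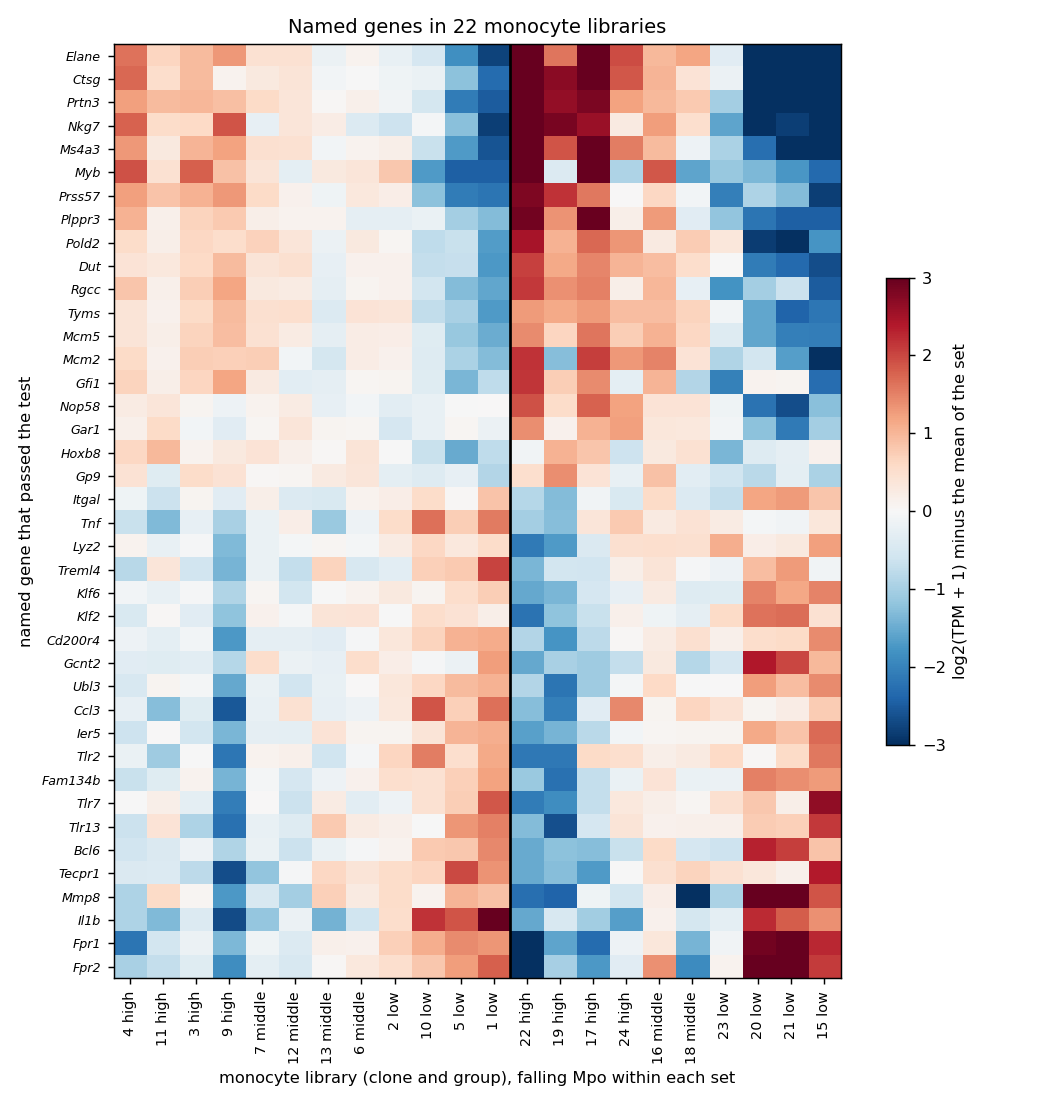
Log2(TPM + 1) minus the mean of the set for named genes that passed (rows), in 22 monocyte libraries ordered by falling Mpo within clones 1 to 13 (left of the line) and clones 15 to 26 (right). Colours change along the order for granule and replication genes at the top and run the other way for receptors at the bottom, with stronger colours in clones 15 to 26, and clone 23 is paler for most genes than the other low libraries of its set (the colour scale ends at 3 and -3).

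The 6 middle libraries were not in the fit of high against low. Elane had 128, 254 and 354 TPM (lowest, median and highest) in the middle libraries, Prtn3 446, 521 and 715 TPM, Mcm5 19.4, 29.1 and 40.5 TPM and Fpr2 9.29, 53.2 and 97.4 TPM. Each of these medians lay between the medians of the high and the low Mpo libraries given above, as a description, since genes called for a wide gap leave more room between the groups. With Mpo as a continuous value over all 22 ranked libraries, limma called 4787 of 10786 genes. That fit includes the high and low libraries and the Mpo values that chose them, so it is not separate support.

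The same genes were set against the change from progenitor to monocyte, measured in the 6 middle clones, whose libraries the groups do not use. There 5756 of 10968 genes were called (52.5%), 2754 higher and 3002 lower in monocytes than in progenitors of the same clones. Across 10481 genes tested in both, the high minus low change and the monocyte minus progenitor change had a Pearson r of -0.63 and a Spearman rho of -0.70, as a description across genes, which are not independent. Of 563 genes called higher in high Mpo monocytes, 369 (65.5%) were lower and 18 (3.20%) higher in middle monocytes than in their progenitors. Of 461 called lower in high Mpo monocytes, 390 (84.6%) were higher and 3 (0.651%) lower in middle monocytes than in their progenitors. Over all 10481 genes the shares were 25.7% lower and 26.2% higher.

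Members of the groups followed this unequally. Myb (-3.31 ± 0.56), Ctsg (-3.11 ± 0.19) and Nkg7 (-2.28 ± 0.14) were lower in middle monocytes than in their progenitors, as were Tyms (-1.25 ± 0.17) and Mcm5 (-0.87 ± 0.18). Fpr2 (5.32 ± 0.36), Fpr1 (3.85 ± 0.39) and Il1b (2.67 ± 0.25) were higher. Elane went the other way from Ctsg: it was higher in middle monocytes than in their progenitors (5.11 ± 0.81, adjusted p = 0.00102), as were Ms4a3 (1.28 ± 0.44, adjusted p = 0.0397), Prss57 (0.99 ± 0.28, adjusted p = 0.0169) and Rgcc (1.48 ± 0.29, adjusted p = 0.00315), and Prtn3 did not pass (0.43 ± 0.23, adjusted p = 0.155). The middle progenitors had a median of 2.63 TPM of Elane and 1699.6 TPM of Ctsg. Elane, Ms4a3, Prss57 and Rgcc were thus higher in high Mpo monocytes and also higher in monocytes than in progenitors.

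**Figure D5:**
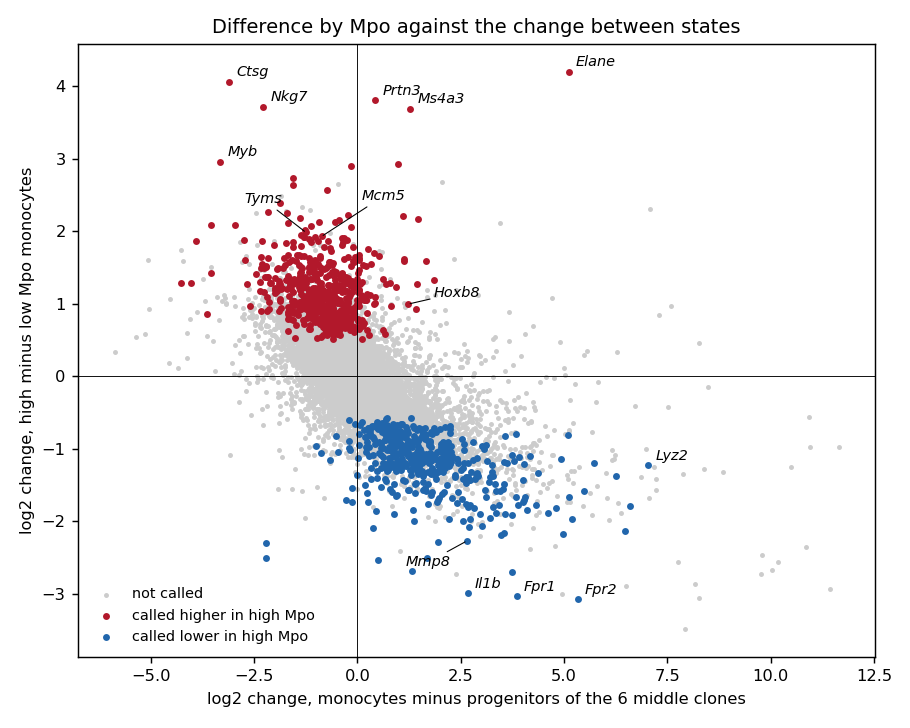
Each point is a gene, with the monocyte minus progenitor log2 change of the 6 middle clones on the horizontal axis and the high minus low Mpo log2 change in monocytes on the vertical axis, and colours mark genes called between high and low Mpo monocytes. Of those called higher 65.5% were called lower in monocytes than in progenitors, and Elane, at 5.11 on the horizontal and 4.20 on the vertical axis, lies at the upper right.

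The progenitors of the same clones were then compared. Mpo in progenitors had 351, 878 and 2026 TPM (lowest, median and highest) in clones whose monocytes were high and 604, 1612 and 4764 TPM in clones whose monocytes were low. The groups overlapped, and the mean difference was -0.72 on the log2 scale, an exact two-sided permutation p of 0.0584 over 4900 arrangements within sets. It was -0.64 in clones 1 to 13 (exact permutation p = 0.257) and -0.79 in clones 15 to 26 (exact permutation p = 0.229), so the difference did not pass. Across 10717 genes limma called 0 (0%) between these progenitor groups (338 at an unadjusted p under 0.05), also with the progenitor libraries of clones 21 and 24, which have the most genes listed at 0 and the fewest genes at 1 TPM, left out. The 10 primary granule genes gave 0 calls there, with Elane at -1.62 ± 1.08 and Ctsg at -0.20 ± 0.13 (adjusted p = 0.923 for both).

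The change between states was compared directly, as the difference per clone. It uses the same monocyte libraries as the comparison of high with low Mpo, so the 2 are not independent. Between high and low Mpo clones it differed for 184 of 11099 genes (1.66%), 173 of them with a larger value in high Mpo clones (1.56%) and 11 with a smaller one (0.0991%). With quantile normalisation the calls were 380 larger and 122 smaller. Ctsg (4.26 ± 0.79, adjusted p = 0.0171), Prtn3 (4.57 ± 0.79, adjusted p = 0.0141) and Nkg7 (3.57 ± 0.56, adjusted p = 0.0141) were among the larger ones, as were 13 of 24 cell cycle genes and Myb (2.82 ± 0.63, adjusted p = 0.0353). Elane was not (5.82 ± 1.64, adjusted p = 0.0721), its progenitor level ranging from 1.34 to 57.1 TPM in high Mpo clones and from 1.78 to 695 TPM in low Mpo clones. Ctsg values give an example: in progenitors it had 899.97 to 1671 TPM in high Mpo clones and 1245 to 2011 TPM in low Mpo clones, and in monocytes 176 to 1888.5 TPM in high Mpo clones and 1.66 to 148 TPM in low Mpo clones. The count was 106, 30, 29 and 26 without clones 3, 9, 17 and 22 of the high group, 19, 30, 26, 30 and 95 without clones 1, 5, 15, 20 and 21 of the low group and 314 without clone 23.

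The construct itself was read through Hoxb8 and Esr1, whose TPM do not separate the cells' own genes from the fusion. Hoxb8 had 145, 230 and 554 TPM in high Mpo and 46.5, 119 and 293 TPM in low Mpo monocytes (0.997 ± 0.30, adjusted p = 0.0457). The groups overlapped, and the call held in 3 of 16 fits with 1 library left out. Esr1 had 7.48, 11.4 and 22.9 TPM in high Mpo and 3.33, 6.81 and 14.1 TPM in low Mpo monocytes (0.75 ± 0.26, adjusted p = 0.0752). In progenitors of the same clones Hoxb8 differed by 0.22 ± 0.30 and did not pass (adjusted p = 0.925). In the middle clones both were higher in monocytes than in progenitors, Hoxb8 by 1.23 ± 0.35 (limma, adjusted p = 0.0170) and Esr1 by 0.88 ± 0.30 (adjusted p = 0.0364). The part of Hoxb8 in the other differences was not tested.

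The size of the difference was compared between the sets of clones. For Elane it was 5.93 in clones 15 to 26 and 2.47 in clones 1 to 13, for Ctsg 6.34 and 1.79, and for Prtn3 5.30 and 2.32. Il1b ran the other way, at -2.47 in clones 15 to 26 and -3.51 in clones 1 to 13. limma called 0 of 10808 genes (0%) for a difference between the sets (1552 at an unadjusted p under 0.05), with adjusted p of 0.248 for Elane, 0.235 for Ctsg and 0.235 for Prtn3. Without clone 23 of the low group it called 1181 genes, so this result turns on that library.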

How the data were processed

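RNA-seq was measured in 48 libraries. The deposited table gives TPM per gene, which the authors obtained with Salmon on mm10, per the submitters' processing notes. Those notes name neither an annotation release nor a strand setting. TPM hold no depth, so no counting intervals are given. Rows with date-like names were left out. The members, gene lists and comparisons were chosen with earlier results of these data known. limma 3.58.1 (R 4.3.3) was fitted with a trend to log2(TPM + 1) of genes with a mean of at least 1 TPM, with the set of clones as covariate, and p-values were adjusted by Benjamini-Hochberg over all genes tested, with a threshold of 0.05. Replicates are separate clones with 1 library per state. The two-state fit in the middle clones was blocked by clone, since both states come from the same clone. The deviations of both states correlated above 0.1 in 5 of 6 clones. Mpo in progenitors was tested with an exact permutation test in Python 3.11.15 with scipy 1.17.1.

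Genes named are the 10 largest called changes in each direction with no overlap within either set and at least 10 TPM in the higher group, up to 3 called genes per list, and 2 abundant members of lists with no call. All primary granule genes and transcription factors were accounted for, and other named genes were chosen after their values were seen. On data simulated for the comparison of monocytes over 10808 genes, 4, 40, 74 and 98% of genes changed by 0.5, 1, 2 and 3 on the log2 scale were recovered. There 50 genes were changed at each size, and 5 unchanged genes were called. Errors were drawn independently for each gene, so correlation between genes was not simulated and these shares may not hold for the real libraries. Other pseudocounts, filters, scalings, group sizes and left-out libraries were tried. 1 gene list is not reported here.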

Additional observations from a re-analysis of the deposited data

Results flagged for a closer look

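Among 142 combinations of 71 named genes with a monocyte group of 8 libraries, 12 had 1 library far from the others, and the 95% critical value used for this gives about 1 in 20 by chance. Clone 23 was the low Mpo library that stood apart for Fpr1 (7.16 TPM, the others 37.5 to 79.4), Fam134b (10.1 TPM, the others 26.9 to 46.4), Ubl3 (46.3 TPM, the others 88.3 to 147) and Klf6 (16.7 TPM, the others 38.3 to 62.8). Clone 19 was the high Mpo library that stood apart for Hsp90b1 (51.5 TPM, the others 276 to 726), Mcm2 (11.2 TPM, the others 71.3 to 131) and Eno1 (527 TPM, the others 1011 to 1626). Clones 19 and 23 also had the highest mitochondrial shares of their groups, 19.2 and 15.4% of the TPM. Other single libraries were high Mpo clone 24 for Prss57 (11.7 TPM, the others 36.9 to 86.7) and high Mpo clone 22 for Fpr2 (0.330 TPM, the others 10.5 to 45.0). Among low Mpo libraries, clone 2 stood apart for Myb (47.8 TPM, the others 2.37 to 7.63), clone 15 for the interferon gene Irf7 (1948 TPM, the others 11.5 to 29.0) and clone 20 for Prg2 (0.249 TPM, the others 35.4 to 129).

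The change between states, monocyte minus progenitor of the same clone, differed between high and low Mpo clones for 18 named genes (limma, adjusted p under 0.05). Over all 11099 tested genes the share was 1.66%. Most of the 18 were named because they were called between these same monocyte libraries, so the count is not separate support. The difference on the log2 scale was 4.57 for Prtn3, 4.26 for Ctsg, 4.19 for Ms4a3, 3.67 for Prss57, 3.57 for Nkg7 and 3.01 for Plppr3. For replication and cell cycle genes it was 2.98 for Rgcc, 2.77 for Pold2, 2.38 for Dut, 2.34 for Mcm5 and 2.18 for Tyms. Myb differed by 2.82, Gfi1 by 2.14 and the eosinophil granule gene Prg3 by 2.78. Negative differences were found for Fpr1 (-2.92), Il1b (-2.57), Fpr2 (-2.03) and Cd200r4 (-1.73).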

How the results depend on the processing

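Between high and low Mpo monocytes, 1036 genes were called, and the count was 266 with no filter on low TPM, 1783 with quantile normalisation, 1723 with 3 and 601 with 5 libraries per group and set, 4787 with Mpo as a continuous value, 1 in clones 1 to 13 alone and 0 in clones 15 to 26 alone (limma, 2225 at an unadjusted p under 0.05). Leaving out 1 library gave 291 to 2520. Without clones 19 and 23, chosen after seeing the data, it was 2563. For the difference between the sets 0 were called, 1 with no filter, and 0 to 1181 with 1 library left out. The change between states gave 184 calls, 0 with no filter (2563 at an unadjusted p under 0.05), 492 rescaled, 502 with quantile normalisation, and 19 to 314 with 1 library left out. In the middle clones 5756 genes were called, 4833 to 6290 with 1 clone left out and 5511 without the replicate block, and without the block the change between states gave 219 calls. In progenitors 0 to 0 genes were called with 1 library left out. The causes were not tested. Over the called named genes, 481 values with 1 library left out passed and 175 did not, all in the same direction. The depth is unknown, so its limit on genes with few TPM could not be given.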

Other observations

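Granule genes of other lineages gave no calls between high and low Mpo monocytes but had wide ranges. Markers of mast cells and basophils summed to 63.4, 152 and 3311 TPM (lowest, median and highest) in high Mpo monocytes and 20.4, 151 and 819 TPM in low Mpo monocytes, and 0 of 6 measured genes passed. Mcpt8, a basophil protease, changed by 2.25 ± 1.18 (adjusted p = 0.2). Its change was -0.71 in clones 1 to 13 and 5.21 in clones 15 to 26. For Cma1, of the same list, it was -1.85 and 2.80. The difference between the sets did not pass for Mcpt8 (limma, adjusted p = 0.235) or Cma1 (adjusted p = 0.427). All 6 measured genes had a more positive change in clones 15 to 26 than in clones 1 to 13 (median difference 4.88). Eosinophil markers summed to 37.8, 184 and 1005 TPM in high Mpo and 3.36, 52.9 and 145 TPM in low Mpo monocytes, and 0 of 4 passed, with the granule proteins Prg2 at 2.31 ± 0.96 (adjusted p = 0.12) and Prg3 at 2.12 ± 0.67 (adjusted p = 0.0567). Over the settings tried, up to 3 mast cell and basophil genes were called higher, and up to 2 eosinophil genes higher and 1 lower. The part of these lineages in the differences was not tested.

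All 19 interferon response genes and all 15 lysosome genes had a negative change, with medians of -1.14 and -0.79, and 0 of each passed, with up to 12 interferon response and 2 lysosome genes called lower over the settings tried. Interferon response genes summed to 72.5, 173 and 451 TPM in high Mpo and 134, 246 and 8008 TPM in low Mpo monocytes. Irf7, of this list, had 1948 TPM in low Mpo clone 15 and 11.5 to 29.0 TPM in the other low libraries. Its mean in high Mpo monocytes was 15.3 TPM. Of 18 genes of protein folding and secretion 0 passed (median 0.55), and up to 7 were called higher over the settings tried (3 with quantile normalisation). Oxidative phosphorylation (0 of 14, median 0.18), mitochondrially encoded genes (0 of 9, median 0.62), NADPH oxidase (0 of 5, median -0.64) and MHC class II (0 of 6, median -0.06) gave no calls, while over the settings tried up to 6 oxidative phosphorylation and 8 mitochondrially encoded genes were called higher, up to 4 NADPH oxidase genes lower and 0 MHC class II genes. Glycolysis gave 0 of 14, with a median of -0.19 that was 0.01 after rescaling. Of 4 measured erythroid and megakaryocyte genes 1 passed, Gp9 (0.95 ± 0.23, adjusted p = 0.0258), against 5.22% called higher over all tested genes. Gp9 had means of 2.19 TPM in high Mpo and 0.626 TPM in low Mpo monocytes.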
